A study of Mus musculus with 16 samples.

Results

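The 9 genes described here act in making arginine, cutting it to ornithine and turning ornithine into polyamines or, for Oat, towards proline and glutamate. Azin1 encodes a regulator, the others enzymes. The 9 are Arg1, Arg2, Odc1, Srm, Sms, Ass1, Asl, Azin1 and Oat. They were picked by symbol from the 56748 genes of the deposited table, around Arg1, whose difference between genotypes in these libraries was already known. Their genotype differences are therefore given below as a description, without p-values, and how many passed a threshold is stated only beside the share of all genes, with nothing read from it. Tests are given for the comparison of regions, for the difference between the genotype effects of the 2 regions, and for 51 other genes. The tests on the 9 genes reuse libraries of the genotype differences, so they are not independent of the choice. The 51 other genes belong to the same metabolism, apart from 4 Myc factors.

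RNA was sequenced from whole pieces of mouse embryos at stage E11.5, in 4 groups of 4 libraries labelled as biological replicates. The groups were Ednrb-/- trunk region, WT trunk region (Ednrb+/+), Ednrb-/- caudal region and WT caudal region. Ednrb is the endothelin B receptor, which migrating pigment-cell and enteric neural crest precursors need, and the study asks how the surroundings of pigment cells bear on where spots form in mice without it. The title calls the mutation targeted. The sources used here do not say how the allele was made, which strain was used, or whether embryos were pooled or gave both regions.

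Arginase splits arginine into urea and ornithine, and ornithine decarboxylase, the first committed step, turns ornithine into putrescine. Spermidine synthase and spermine synthase then add aminopropyl groups, and the resulting polyamines bind nucleic acids and are needed by growing cells. Antizyme proteins inhibit ornithine decarboxylase and send it to the proteasome, while antizyme inhibitor 1 takes antizyme away from it. Ornithine aminotransferase leads ornithine towards proline and glutamate instead, and argininosuccinate synthase and lyase rebuild arginine from citrulline. Arginase 1 is best known in adult liver and in some macrophages, and is a cytosolic enzyme, while arginase 2 is mitochondrial.

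On mm39, in the deposited table's coordinates, all 9 are protein-coding genes. On the plus strand are Arg2 (chr12:79177551-79203075), Odc1 (chr12:17594795-17601506), Srm (chr4:148675960-148679450) and Ass1 (chr2:31360219-31410684). On the minus strand are Arg1 (chr10:24791119-24803382), Sms (chrX:156226851-156275283), Asl (chr5:130040099-130058088), Azin1 (chr15:38487671-38519510) and Oat (chr7:132159207-132178127). The values are summed over exons for each gene, so they do not separate isoforms.

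RefSeq start-site windows (GRCm38.p6) were matched by symbol for 4 of the 9 genes: Odc1, Sms, Ass1 and Oat. The 250 bases before each annotated start are printed for Odc1, Sms and Ass1, each higher in every Ednrb-/- trunk than every WT trunk library. In caudal tissue this held for Odc1 and Sms only, as Ass1 overlapped between genotypes (log2 difference -0.04 ± 0.12). Capitals mark matches to CACGTG, the E-box that Myc and Max bind, and to GGGCGG or its reverse complement CCGCCC, the GC box of Sp1-type factors.
Odc1 (chr12:17544623-17544872, plus strand): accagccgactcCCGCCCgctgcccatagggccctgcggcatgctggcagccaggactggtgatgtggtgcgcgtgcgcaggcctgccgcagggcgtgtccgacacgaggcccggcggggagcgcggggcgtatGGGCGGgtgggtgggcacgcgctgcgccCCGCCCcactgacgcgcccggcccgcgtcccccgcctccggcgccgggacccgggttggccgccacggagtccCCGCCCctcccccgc
Sms, start 1 (chrX:157491369-157491618, minus strand): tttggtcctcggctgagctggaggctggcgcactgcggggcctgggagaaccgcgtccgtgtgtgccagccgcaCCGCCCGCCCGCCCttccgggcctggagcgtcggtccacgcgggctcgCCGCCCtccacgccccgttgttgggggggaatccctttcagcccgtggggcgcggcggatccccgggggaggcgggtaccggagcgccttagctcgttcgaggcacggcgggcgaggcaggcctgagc
Sms, start 2 (chrX:157492288-157492537, minus strand): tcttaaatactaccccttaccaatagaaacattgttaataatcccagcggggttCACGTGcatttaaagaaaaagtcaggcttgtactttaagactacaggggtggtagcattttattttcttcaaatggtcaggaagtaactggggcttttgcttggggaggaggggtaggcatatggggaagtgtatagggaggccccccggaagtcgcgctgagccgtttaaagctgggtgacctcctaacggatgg
Ass1 (chr2:31470020-31470269, plus strand): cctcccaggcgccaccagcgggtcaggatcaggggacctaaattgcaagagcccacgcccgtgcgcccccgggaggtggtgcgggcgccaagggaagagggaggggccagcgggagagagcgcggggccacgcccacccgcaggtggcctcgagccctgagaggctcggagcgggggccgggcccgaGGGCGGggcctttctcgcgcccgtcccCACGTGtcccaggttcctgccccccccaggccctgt
The Odc1 window held 4 GC boxes and 0 E-boxes, and its GC content was 80%. In mouse Odc1 the known Myc-binding E-boxes lie inside the gene, outside the printed window. The Sms window at start 1 also held 4 GC boxes, 3 of them overlapping one another, and 0 E-boxes. That at start 2 held 1 E-box and 0 GC boxes, and the Ass1 window held 1 of each. The Oat window held 0 of both. Among 32851 RefSeq windows of the same length, 6.02% held an E-box and 32.7% a GC box on either strand. The matches describe letters, not binding.

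The libraries held between 34883821 and 43444905 reads in listed genes, and Ednrb was at 3.37 to 4.80 FPKM in Ednrb-/- trunk libraries and 1.59 to 3.44 FPKM in Ednrb-/- caudal libraries, against 26.2 to 41.8 FPKM in the 8 WT libraries. FPKM are fragments scaled to gene length and to a total for each library, so levels of different genes can be compared. That total was not the count of reads in listed genes. It was below that count in every Ednrb-/- caudal library, for example 35337781 against 37251226 in replicate 2. In the 8 WT libraries it was above that count. Small differences between genotypes therefore depend on this scaling. The summed FPKM of 6 Hox genes of the caudal body end was 0.0385 to 0.606 in the 8 trunk libraries and 65.2 to 105 in the 8 caudal libraries, as the region labels say. Among the 9 genes, Ednrb-/- trunk replicate 3 was lowest in its group for 8, and Ednrb-/- caudal replicate 2 was highest in its group for 6. That caudal library also had the largest summed FPKM of the 16, 282291, but the excess was shared by its group. Summed FPKM was 268386 to 282291 in Ednrb-/- caudal libraries and 250861 to 262459 in the other groups. TPM scaling, an alternative used below, sets these sums equal. Libraries are shown with both regions and genotypes side by side in the plot of levels.

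**Figure D1:**
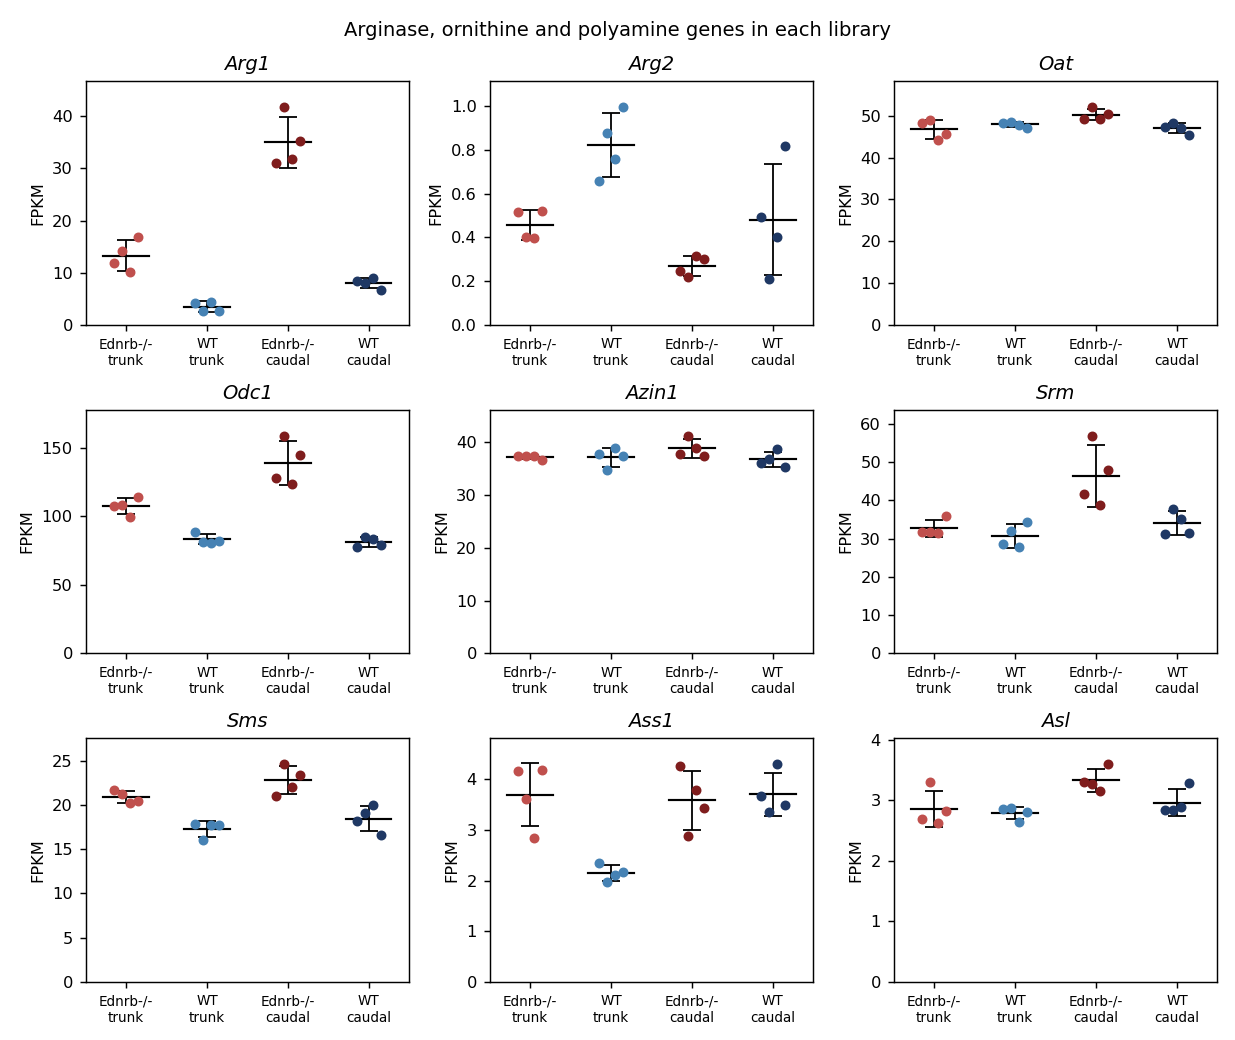
FPKM of each of the 9 genes (one panel per gene, linear axis from 0) in the 16 libraries. Points are libraries, replicates 1 to 4 from left to right, and bars are group means ± SD (n = 4). Arg1 runs from 2.58 FPKM in a WT trunk library to 41.7 FPKM in an Ednrb-/- caudal library, while Azin1 and Oat stay nearly level.

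Arg1 had the widest spread between group means among the 9 genes when taken as a ratio. Its FPKM in replicates 1 to 4 was 11.8, 14.2, 10.2 and 16.9 in Ednrb-/- trunk, against 4.27, 2.58, 4.43 and 2.70 in WT trunk. In the caudal region it was 31.1, 41.7, 31.9 and 35.2 in Ednrb-/- libraries, against 8.49, 8.04, 8.92 and 6.75 in WT libraries. No 2 groups overlapped: in the order WT trunk, WT caudal, Ednrb-/- trunk and Ednrb-/- caudal, every library of a group lay above every library of the group before it. The means were 13.3 ± 2.90 FPKM in Ednrb-/- trunk and 3.50 ± 0.993 in WT trunk, and 35.0 ± 4.85 in Ednrb-/- caudal and 8.05 ± 0.936 in WT caudal (SD, n = 4 each). On the log2(FPKM + 0.5) scale the difference between Ednrb-/- and WT was 1.79 ± 0.17 (SE) in trunk and 2.05 ± 0.17 in caudal tissue. These 2 differences did not pass a test against each other (difference of trunk minus caudal effect -0.26 ± 0.24, limma adjusted p = 0.569).

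As far as it is stated, the choice of the genes did not rest on the contrast between regions. That contrast reuses libraries of the genotype differences, so its p-values are not independent of the choice. Arg1 was lower in trunk than in caudal tissue in both genotypes. The log2 difference was -1.38 ± 0.17 in Ednrb-/- libraries (limma with Benjamini-Hochberg adjustment over 17205 genes, adjusted p = 2.8e-05) and -1.12 ± 0.17 in WT libraries (adjusted p = 0.00035). With any 1 library left out these values stayed between -1.50 and -1.27 in Ednrb-/- and between -1.24 and -1.01 in WT libraries. A lower level in a piece of tissue can come from fewer cells that make the RNA or from less RNA per cell, which these bulk libraries cannot tell apart.

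Markers of macrophages and liver, in which Arg1 is known, and of other tissues were read in the same libraries. Of all genes tested, 12.2% rose and 13% fell in Ednrb-/- trunk, and 21.7% rose and 19.9% fell in Ednrb-/- caudal tissue, and the marker counts stand beside these shares. The summed FPKM of 12 macrophage markers (Csf1r, C1qa, Mrc1 and others) was 25.7 to 31.0 in Ednrb-/- trunk against 33.6 to 42.5 in WT trunk, and 25.3 to 33.4 in Ednrb-/- caudal against 40.8 to 50.4 in WT caudal libraries. Of these markers 7 of 12 fell in the trunk and 11 of 12 in caudal tissue, and 0 rose. The sum of 7 granulocyte markers was also lower. It was 2.19 to 2.96 FPKM in Ednrb-/- trunk against 3.91 to 8.62 in WT trunk libraries. In the caudal region it was 2.17 to 4.14 in Ednrb-/- against 6.08 to 10.4 in WT libraries. Of the 5 tested, 3 fell in each region. S100a9, the largest part of the sum in WT groups, averaged 0.442 FPKM in Ednrb-/- trunk against 2.53 in WT trunk. In caudal tissue it averaged 0.361 in Ednrb-/- against 3.81 in WT libraries. Mpo and Prtn3 were not lower, at 0.459 and 1.36 FPKM in Ednrb-/- trunk against 0.408 and 1.35 in WT trunk. In caudal tissue they averaged 0.779 and 1.34 in Ednrb-/- against 0.647 and 1.24 in WT libraries. Of 10 liver markers 8 averaged under 0.5 FPKM in each group, Alb, Fgb and Hnf4a among them, with no library above 0.758 FPKM for Alb. The sum of 10 surface ectoderm markers was 35.7 to 39.9 in Ednrb-/- trunk against 43.3 to 55.1 in WT trunk, but 61.3 to 76.5 in Ednrb-/- caudal against 49.4 to 63.4 in WT caudal libraries. Within that list Krt8 and Krt18 averaged 16.6 and 16.9 FPKM in Ednrb-/- caudal against 7.77 and 6.54 in WT caudal libraries, while Krt5 averaged 7.18 FPKM in Ednrb-/- caudal against 14.3 in WT caudal libraries. Of the 10 markers 2 rose and 3 fell in trunk, and 6 rose and 3 fell in caudal tissue. The sum of 6 endothelial markers was 56.7 to 59.7 in Ednrb-/- trunk against 49.0 to 57.7 in WT trunk, and 72.6 to 75.6 in Ednrb-/- caudal against 61.7 to 64.5 in WT caudal libraries, and 2 of 6 rose in trunk and 4 of 6 in caudal tissue. Of 10 erythroid markers 1 rose and 4 fell in each region, and of 6 nephric markers 2 fell in trunk, and 2 rose and 3 fell in caudal tissue. In Ednrb-/- trunk libraries Ltf of the granulocyte list and Serpina1a of the liver list averaged 0 FPKM. The part of any of these lists in the Arg1 differences was not tested.

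Arg2 was low everywhere and ran the other way. Its FPKM in replicates 1 to 4 was 0.514, 0.400, 0.395 and 0.521 in Ednrb-/- trunk, against 0.656, 0.875, 0.761 and 0.996 in WT trunk. It was 0.247, 0.218, 0.314 and 0.302 in Ednrb-/- caudal, against 0.494, 0.211, 0.402 and 0.818 in WT caudal libraries. The trunk groups were separate and the caudal groups overlapped, with WT caudal replicate 2 the lowest of all 16. The log2 difference between genotypes was -0.46 ± 0.15 in trunk and -0.32 ± 0.15 in caudal tissue. The caudal value was -0.74 with voom on whole reads and -0.15 under quantile scaling, and it was -0.46 without WT caudal replicate 2 and -0.16 without WT caudal replicate 4. Arg2 passed the filter on low values only through the group where it was highest: 4 WT trunk libraries reached 0.5 FPKM, against 2 Ednrb-/- trunk, 0 Ednrb-/- caudal and 1 WT caudal library. These values rest on as few as 11 reads. The 3' end of Arg2 also overlaps Vti1b on the opposite strand (chromosome 12, 79202791 to 79219441, mm39). Vti1b averaged 23.6 to 27.0 FPKM in the 4 groups, and no source used here gives the strand setting of the counting, so Arg2 is uncertain.

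Between regions, the log2 difference of Arg2, trunk minus caudal, was 0.31 ± 0.15 in Ednrb-/- libraries, where every trunk library lay above every caudal one, and 0.46 ± 0.15 in WT libraries. Since the filter was passed through WT trunk, these values are a description, with no support drawn from a test. Arg1 accounted for 96.6 ± 0.654% of the summed arginase FPKM in Ednrb-/- trunk and 80.0 ± 7.07% in WT trunk, and for 99.2 ± 0.192% in Ednrb-/- caudal and 94.2 ± 3.55% in WT caudal libraries (SD, n = 4 each). The share was thus highest in the group with the most Arg1, and spread most in WT trunk, from 73.1% to 86.7%.

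Odc1, the rate-limiting enzyme of polyamine synthesis, was the most abundant of the 9 genes. Its FPKM in replicates 1 to 4 was 108, 108, 99.5 and 114 in Ednrb-/- trunk, against 88.6, 81.0, 80.8 and 82.1 in WT trunk. It was 128, 159, 123 and 145 in Ednrb-/- caudal, against 77.8, 85.1, 83.7 and 78.8 in WT caudal libraries. Every Ednrb-/- library lay above every WT library of its region, and the 2 WT groups overlapped. The log2 difference between genotypes was 0.37 ± 0.07 in trunk and 0.76 ± 0.07 in caudal tissue. The difference between these effects, trunk minus caudal, was -0.40 ± 0.10 (limma adjusted p = 0.026). It passed the threshold with 11 of 16 libraries left out in turn. It missed the threshold when WT trunk replicate 1 (-0.36, limma adjusted p = 0.0568) or WT caudal replicate 1 (-0.37, adjusted p = 0.0539) was left out. The same held for Ednrb-/- trunk replicates 1 (-0.40, limma adjusted p = 0.0504) and 3 (-0.36, adjusted p = 0.0553) and Ednrb-/- caudal replicate 4 (-0.37, adjusted p = 0.0589), and with no filter on low values the adjusted p was 0.0621. Odc1 was lower in trunk than caudal tissue in Ednrb-/- libraries (log2 difference -0.36 ± 0.07, limma adjusted p = 0.00079), and the WT difference was 0.03 ± 0.07 (adjusted p = 0.798).

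Of the 51-base windows of annotated Odc1 transcripts, 24.0% also occur in 16 other genes. The largest share is with Gm7993, a processed pseudogene on chromosome 5, which averaged 1.11 to 1.59 FPKM in the 4 groups. Adding its reads to Odc1 left the difference between effects at -0.40 ± 0.10.

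Azin1, which protects ornithine decarboxylase from antizyme, was nearly level. Its means were 37.2 ± 0.415 FPKM in Ednrb-/- trunk and 37.2 ± 1.79 in WT trunk, and 38.8 ± 1.77 in Ednrb-/- caudal and 36.7 ± 1.40 in WT caudal libraries (SD, n = 4 each). The groups overlapped in each comparison. The log2 differences between genotypes were 0.00 ± 0.04 in trunk and 0.08 ± 0.04 in caudal tissue, and those between regions did not pass (limma adjusted p = 0.267 in Ednrb-/- and 0.826 in WT). The ratio of Odc1 to Azin1 FPKM was 2.89 ± 0.191 in Ednrb-/- trunk and 2.24 ± 0.129 in WT trunk, and 3.58 ± 0.351 in Ednrb-/- caudal and 2.22 ± 0.0747 in WT caudal libraries.

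Oaz1, the main antizyme and not one of the 9 genes, averaged 118 ± 7.11 FPKM in Ednrb-/- trunk and 118 ± 4.47 in WT trunk, and 137 ± 7.40 in Ednrb-/- caudal and 118 ± 9.68 in WT caudal libraries. It rose in Ednrb-/- caudal tissue (log2 difference 0.21 ± 0.06, limma adjusted p = 0.0089), a call that TPM scaling ended (0.11, adjusted p = 0.0979) and whose sign quantile scaling turned (-0.03). In trunk the difference was -0.01 ± 0.06. The ratio of Odc1 to Oaz1 was 0.915 ± 0.0369 in Ednrb-/- trunk and 0.704 ± 0.0231 in WT trunk, and 1.02 ± 0.0856 in Ednrb-/- caudal and 0.692 ± 0.0306 in WT caudal libraries. Every Ednrb-/- library had a higher ratio than every WT library of its region. A ratio within a library is free of its scaling, but shows only that the 2 genes changed unequally. Of annotated Oaz1 windows 20.8% occur in other genes, so its level carries the same uncertainty as that of Odc1.

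**Figure D2:**
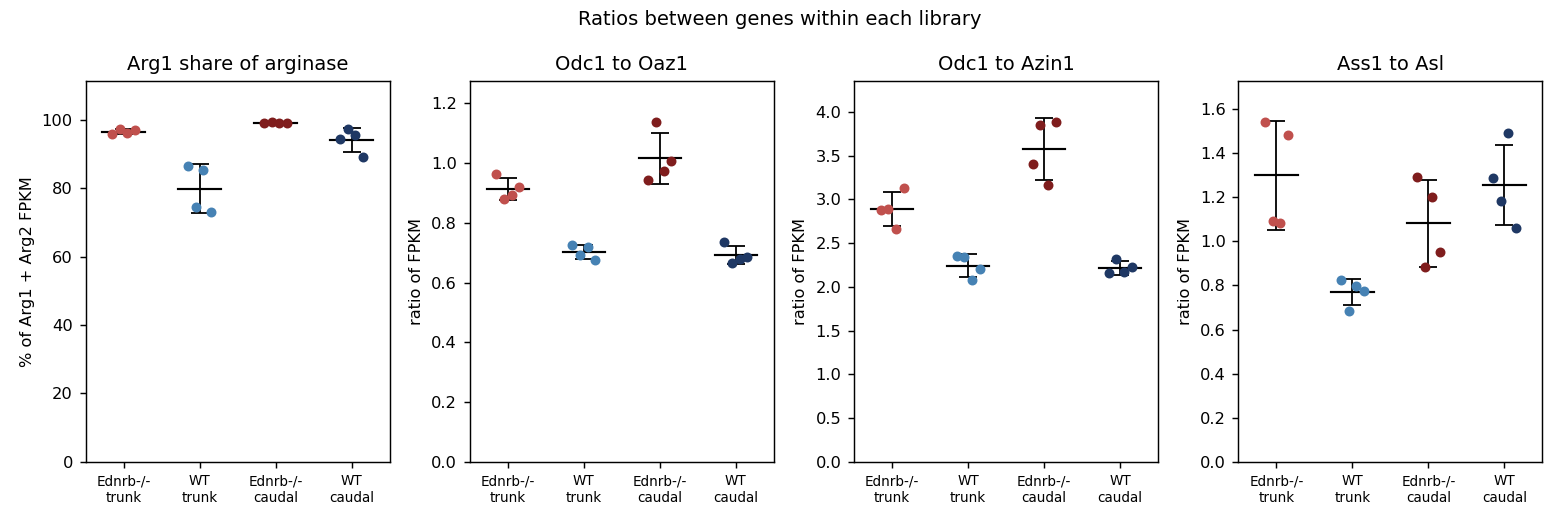
Ratios of FPKM between pairs of the genes in each of the 16 libraries (points, replicates 1 to 4 from left to right), with group means ± SD (bars, n = 4). The left panel gives Arg1 as a percentage of Arg1 plus Arg2 FPKM. In the Odc1 panels each Ednrb-/- library lies above the WT libraries of its region.

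Srm and Sms, the synthases of spermidine and spermine, differed in pattern. Srm FPKM in replicates 1 to 4 was 31.7, 31.8, 31.4 and 35.9 in Ednrb-/- trunk, against 28.6, 32.1, 27.8 and 34.3 in WT trunk. It was 41.6, 56.9, 38.7 and 48.0 in Ednrb-/- caudal, against 31.3, 37.8, 35.2 and 31.5 in WT caudal libraries. The trunk groups overlapped and the caudal groups did not. The log2 difference between genotypes was 0.09 ± 0.10 in trunk and 0.43 ± 0.10 in caudal tissue, and the difference between these effects did not pass (-0.34 ± 0.15, limma adjusted p = 0.175). In Ednrb-/- libraries Srm was lower in trunk than caudal tissue (log2 difference -0.48 ± 0.10, limma adjusted p = 0.0021), while in WT the difference was -0.14 ± 0.10 (adjusted p = 0.376).

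Sms FPKM in replicates 1 to 4 was 21.7, 21.3, 20.3 and 20.5 in Ednrb-/- trunk, against 17.8, 16.0, 17.8 and 17.7 in WT trunk. It was 21.0, 24.7, 22.1 and 23.5 in Ednrb-/- caudal, against 18.2, 19.1, 20.0 and 16.6 in WT caudal libraries. The genotypes were separate in both regions, with log2 differences of 0.27 ± 0.06 in trunk and 0.30 ± 0.06 in caudal tissue. The regions overlapped in both genotypes, and neither difference passed (limma adjusted p = 0.128 in Ednrb-/- and 0.334 in WT). Sms is X-linked, and the sexes of the libraries were not balanced, with Xist high and the Y-linked Ddx3y low in 1 Ednrb-/- trunk, 2 WT trunk, 0 Ednrb-/- caudal and 1 WT caudal library. With a term for sex the Sms differences between genotypes were 0.28 ± 0.06 in trunk and 0.31 ± 0.06 in caudal tissue. Of annotated Sms windows 17.4% occur in Sms-ps, a processed pseudogene also on chromosome X, which the table lists at 36.1 ± 2.76 FPKM in Ednrb-/- trunk and 29.9 ± 2.04 in WT trunk, and at 43.1 ± 5.29 in Ednrb-/- caudal and 34.2 ± 3.83 in WT caudal libraries. These levels per length exceed those of Sms, and reads of the 2 cannot be assigned with certainty. With both sets of reads together the genotype differences were 0.27 ± 0.06 and 0.31 ± 0.06.

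Ass1, argininosuccinate synthase, stood apart by a low level in a single group. Its FPKM in replicates 1 to 4 was 4.16, 3.61, 2.85 and 4.19 in Ednrb-/- trunk, against 2.35, 1.97, 2.11 and 2.17 in WT trunk. It was 4.26, 2.88, 3.80 and 3.42 in Ednrb-/- caudal, against 3.66, 3.35, 4.30 and 3.49 in WT caudal libraries. The WT trunk libraries lay below the other 12, which overlapped. The log2 difference between genotypes was 0.65 ± 0.12 in trunk and -0.04 ± 0.12 in caudal tissue, and the difference between these effects was 0.70 ± 0.16 (limma adjusted p = 0.022). Without Ednrb-/- trunk replicate 1 it was 0.64 (limma adjusted p = 0.0515), and with no filter on low values the adjusted p was 0.0541. Ass1 was lower in WT trunk than WT caudal tissue (log2 difference -0.66 ± 0.12, limma adjusted p = 0.0011), while in Ednrb-/- libraries the regions differed by 0.04 ± 0.12 (adjusted p = 0.84).

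Of annotated Ass1 windows 38.4% occur in Gm5424, a processed pseudogene on chromosome 10. Gm5424 was at 4.15 ± 0.701 FPKM in Ednrb-/- trunk and 2.71 ± 0.387 in WT trunk, and at 3.75 ± 0.841 in Ednrb-/- caudal and 3.58 ± 0.722 in WT caudal libraries, so it too was lowest in WT trunk. Taken alone, Gm5424 did not pass for the difference between genotype effects (0.48 ± 0.22, limma adjusted p = 0.191). Nor did it between regions in WT libraries (-0.34 ± 0.15, limma adjusted p = 0.141). With the reads of both together the difference between the genotype effects was 0.65 ± 0.12 (limma adjusted p = 0.0091), and the WT difference between regions was -0.58 ± 0.09 (adjusted p = 0.00037). Reads of the 2 cannot be assigned with certainty and may count in both, so the joint fit adds no separate evidence.

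Asl, argininosuccinate lyase, was close to level at 2.86 ± 0.300 FPKM in Ednrb-/- trunk and 2.79 ± 0.102 in WT trunk, and 3.33 ± 0.189 in Ednrb-/- caudal and 2.96 ± 0.217 in WT caudal libraries. The log2 differences between genotypes were 0.03 ± 0.07 in trunk and 0.15 ± 0.07 in caudal tissue, with overlapping groups, and the caudal value was 0.06 under TPM scaling and 0.23 under quantile scaling. The ratio of Ass1 to Asl was 1.30 ± 0.247 in Ednrb-/- trunk and 0.770 ± 0.0592 in WT trunk, and 1.08 ± 0.196 in Ednrb-/- caudal and 1.26 ± 0.182 in WT caudal libraries. In Ednrb-/- libraries Asl was lower in trunk than caudal tissue (log2 difference -0.19 ± 0.07, limma adjusted p = 0.035). That call was lost with 6 of the 16 libraries left out in turn, at limma adjusted p from 0.056 without Ednrb-/- caudal replicate 1 to 0.109 without Ednrb-/- caudal replicate 4, and under TPM scaling (adjusted p = 0.162).

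Oat, ornithine aminotransferase, was at 46.8 ± 2.29 FPKM in Ednrb-/- trunk and 48.0 ± 0.617 in WT trunk, and 50.3 ± 1.30 in Ednrb-/- caudal and 47.1 ± 1.21 in WT caudal libraries. The log2 difference between genotypes was -0.04 ± 0.03 in trunk and 0.10 ± 0.03 in caudal tissue. The caudal libraries did not overlap, yet the sign turned under TPM scaling (-0.00603) and under quantile scaling (-0.03). In Ednrb-/- libraries Oat was lower in trunk than caudal tissue (log2 difference -0.10 ± 0.03, limma adjusted p = 0.028). That call was lost under TPM scaling (-0.03, adjusted p = 0.453) and without Ednrb-/- trunk replicate 3 (adjusted p = 0.103) or 4 (adjusted p = 0.0668), or Ednrb-/- caudal replicate 2 (adjusted p = 0.0855) or 4 (adjusted p = 0.0613).

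**Figure D3:**
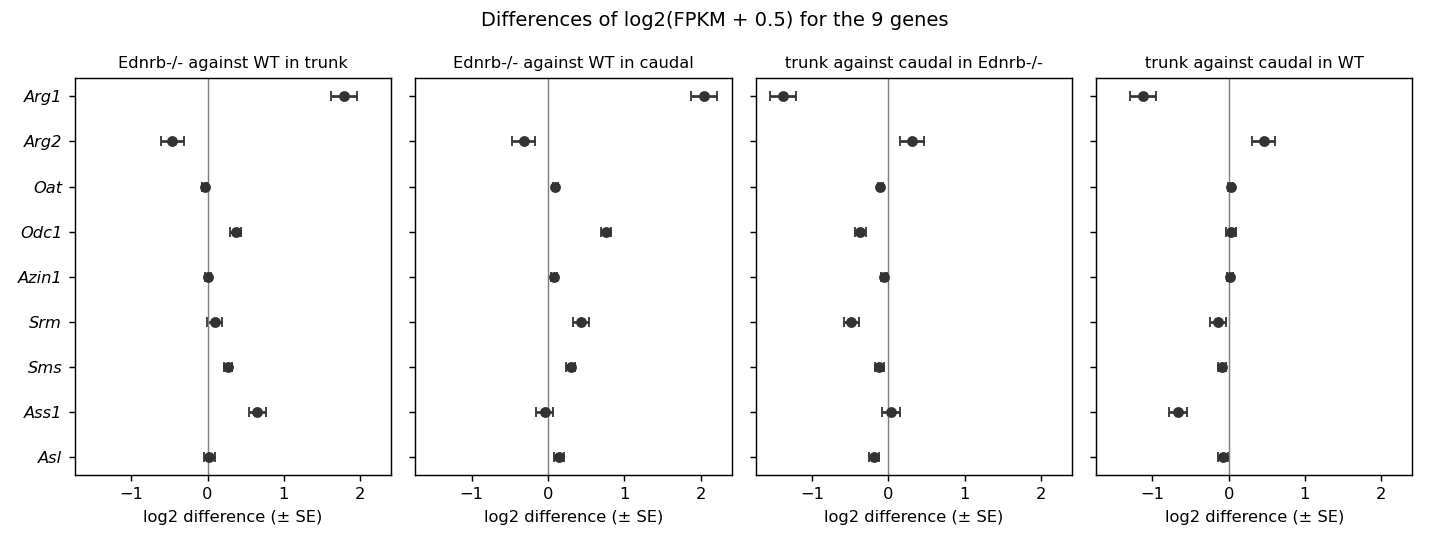
Differences of log2(FPKM + 0.5) for the 9 genes in 4 comparisons (points), with limma standard errors (bars). Positive values mean higher in Ednrb-/- than WT, or higher in trunk than caudal tissue. Arg1 lies furthest from 0 in each comparison, and Ass1 stands off 0 in trunk between genotypes and in WT between regions.

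Counted over the 9 genes, all of which were tested, Arg2 only through WT trunk, 5 passed the threshold of limma adjusted p under 0.05 between genotypes in trunk, with 25.1% of all genes tested passing. In caudal tissue 5 passed as well, with 41.6% of all genes passing. The groups of libraries did not overlap for 5 genes in trunk (28.1% of all genes) and 5 in caudal tissue (37.3%). These counts describe genes that were chosen with the genotype differences known, and nothing is read from them. Between regions 5 of 9 fell in trunk relative to caudal tissue in Ednrb-/- libraries, namely Arg1, Odc1, Srm, Asl and Oat, and 0 rose, with 36.2% of all genes passing and 18.9% passing as lower. This count was 3 of 9, namely Arg1, Odc1 and Srm, under TPM scaling and with Ednrb-/- trunk replicate 3 or 4 or Ednrb-/- caudal replicate 2 or 4 left out. In WT libraries Arg1 and Ass1 fell, with 18% of all genes passing, 8.35% as lower and 9.69% as higher. Arg2 also passed there, and is not counted, for the reason given above. The genotype effect differed between regions for Odc1 and Ass1, 2 of 9, with 6.76% of all genes passing, 2.98% in the direction of Odc1 and 3.78% in that of Ass1. That share, 1163 genes with all libraries, depends on single libraries. Between 585 and 673 genes passed when any 1 of the following was dropped. These were Ednrb-/- trunk replicates 1 and 3, WT trunk replicate 1, Ednrb-/- caudal replicates 2 and 4, and WT caudal replicate 1. Dropping any other library gave 813 (WT caudal replicate 4) to 1488 (Ednrb-/- caudal replicate 3). With no filter on low values 571 passed. Under TPM scaling the split over all genes was 3936 higher and 1945 lower between regions in Ednrb-/- libraries, in place of 2982 and 3252, and 1130 and 299 for the difference between effects, in place of 650 and 513. Between regions the median log2 difference over the 9 genes, Arg2 included, was -0.12 in Ednrb-/- and -0.07 in WT libraries. Its counterpart over all 17205 genes was -0.012 in Ednrb-/- and 0.002 in WT libraries. Between genotypes the median over the 9 genes was 0.09 in trunk and 0.15 in caudal tissue. As with the genotype counts, nothing is read from these 2 values.

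Apart from 4 Myc factors, the other genes belong to arginine and polyamine metabolism. They were taken from a list of 51, grouped by role, of which 43 were tested. The 8 that were not are Oaz3, Slc25a2, Cps1, Otc, Nags, Nos1, Nos2 and Agmat, none of which reached 0.5 FPKM in any library. Cps1, Otc and Nags are the enzymes that open the urea cycle in liver. In trunk, 16 of 43 passed between genotypes (10 rose in Ednrb-/- and 6 fell), where 12.2% of all genes rose and 13% fell. In caudal tissue 25 of 43 passed (19 rose and 6 fell), where 21.7% of all genes rose and 19.9% fell. The rises include Myc and Mycn in both regions and Max in caudal tissue, which are not genes of this metabolism. Between regions 24 passed in Ednrb-/- libraries (6 higher and 18 lower in trunk), where 17.3% of all genes were higher and 18.9% lower. In WT libraries 8 passed (5 higher and 3 lower), where 9.69% of all genes were higher and 8.35% lower, so the count was close to that over all genes. The directions depend on scaling. Under TPM scaling the caudal genotype split was 11 rises and 9 falls, against 2219 rises and 5017 falls over all genes, where the deposited values gave 3732 and 3432. Scaled to reads in listed genes, the trunk genotype split was 8 rises and 9 falls, against 1643 and 2726 over all genes in place of 2092 and 2229, and under TPM or quantile scaling the WT region split was 5 higher and 5 lower. The median log2 difference of the 43 genes was 0.02 in trunk and 0.12 in caudal tissue between genotypes.

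Of the 9 genes of S-adenosylmethionine decarboxylation and methionine salvage, which supply the aminopropyl groups and recycle what is left, 4 rose in Ednrb-/- trunk and 5 in Ednrb-/- caudal tissue, and 0 fell. Over all genes tested, 12.2% rose in trunk and 21.7% in caudal tissue. Under TPM scaling 3 rose in each region and 0 fell, and under quantile scaling 1 fell in trunk. Amd1, which makes the aminopropyl donor, was at 46.1, 45.4, 43.7 and 43.6 FPKM in Ednrb-/- trunk, against 37.4, 37.0, 36.6 and 35.3 in WT trunk. It was at 47.7, 60.6, 48.6 and 51.5 FPKM in Ednrb-/- caudal, against 39.3, 41.6, 42.4 and 36.2 in WT caudal libraries. The genotypes were separate in both regions. The log2 difference was 0.29 ± 0.06 in trunk (limma adjusted p = 0.0046) and 0.38 ± 0.06 in caudal tissue (adjusted p = 0.00028). Of annotated Amd1 windows 77.9% occur in other genes, above all in Amd2, which was listed below 1 FPKM on average in each group. With the reads of both together the differences were 0.29 ± 0.06 and 0.37 ± 0.06. Mtap, which recycles the leftover methylthioadenosine, rose by 0.31 ± 0.08 (limma adjusted p = 0.008) and 0.41 ± 0.08 (adjusted p = 0.00052). Mat2a, which makes S-adenosylmethionine, rose by 0.19 ± 0.04 (limma adjusted p = 0.0062) and 0.33 ± 0.04 (adjusted p = 4.6e-05).

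The hypusine pathway uses spermidine to modify the translation factor eIF5A. Of its 4 genes, Eif5a rose in Ednrb-/- trunk, and Eif5a, Dhps and Dohh rose in Ednrb-/- caudal tissue. The shares of all genes tested that rose were 12.2% in trunk and 21.7% in caudal tissue. The Dohh call (0.36 ± 0.13, limma adjusted p = 0.0322) was lost under TPM scaling (adjusted p = 0.0897) and without Ednrb-/- caudal replicate 3 (adjusted p = 0.052) or 4 (adjusted p = 0.117), or WT caudal replicate 1 (adjusted p = 0.114) or 3 (adjusted p = 0.0557). Eif5a was at 281 ± 19.9 FPKM in Ednrb-/- trunk and 229 ± 7.93 in WT trunk, and at 382 ± 44.1 in Ednrb-/- caudal and 256 ± 24.0 in WT caudal libraries. Its log2 differences were 0.29 ± 0.08 in trunk (limma adjusted p = 0.0134) and 0.58 ± 0.08 in caudal tissue (adjusted p = 5.5e-05). Dhps, deoxyhypusine synthase, was at 6.77 ± 0.254 FPKM in Ednrb-/- trunk and 7.52 ± 0.550 in WT trunk, and at 8.89 ± 0.455 in Ednrb-/- caudal and 7.25 ± 0.651 in WT caudal libraries. Its genotype effect differed between regions (-0.42 ± 0.09, limma adjusted p = 0.0139), with a log2 difference of -0.14 ± 0.06 in trunk and 0.28 ± 0.06 in caudal tissue. The share of reads in ribosomal protein genes, another part of the translation machinery, was 3.50% to 3.67% in Ednrb-/- caudal libraries against 2.91% to 3.08% in WT caudal libraries, and 3.10% to 3.30% in Ednrb-/- trunk against 2.95% to 3.23% in WT trunk libraries. Its part in these differences was not tested.

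Genes of proline synthesis and breakdown, which adjoin the branch that Oat opens, showed 0 of 6 passing in trunk. Not all of them act on what Oat makes, so their counts do not measure that branch. In caudal tissue 5 of 6 rose in Ednrb-/- libraries, and 3 of 6 under TPM scaling. Of all genes tested, 25.1% passed in trunk and 21.7% rose in caudal tissue with the deposited values. Among the 5 were Aldh18a1 (0.26 ± 0.05, limma adjusted p = 0.00056), an enzyme of proline synthesis, and Prodh (0.43 ± 0.07, adjusted p = 0.00022), which breaks proline down. Prodh was at 1.68 ± 0.163 FPKM in Ednrb-/- trunk and 1.70 ± 0.161 in WT trunk, and at 2.29 ± 0.0937 in Ednrb-/- caudal and 1.57 ± 0.0921 in WT caudal libraries. Its genotype effect differed between regions (-0.44 ± 0.10, limma adjusted p = 0.0185), a call lost without the 3 libraries in which Xist as well as Ddx3y exceeded 5 FPKM (adjusted p = 0.057).

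Of 5 tested genes that put arginine to other uses, 2 fell in Ednrb-/- trunk and 3 in Ednrb-/- caudal tissue, and 0 rose. Among all genes tested, 13% fell in trunk and 19.9% in caudal tissue. Under quantile scaling 4 of the 5 fell and 1 rose in caudal tissue. Ddah1, which clears methylated arginines that block nitric oxide synthase, fell by 0.42 ± 0.08 (log2) in trunk (limma adjusted p = 0.0016) and by 0.55 ± 0.08 in caudal tissue (adjusted p = 8.4e-05). Ddah2, of the same function, was more abundant and nearly level. It was at 141 ± 5.28 FPKM in Ednrb-/- trunk and 141 ± 5.28 in WT trunk. In caudal tissue it was at 139 ± 9.02 in Ednrb-/- and 142 ± 5.62 in WT libraries. Gatm, the arginine-using start of creatine synthesis, was at 3.46 ± 0.358 FPKM in Ednrb-/- caudal against 5.06 ± 0.329 in WT caudal libraries (log2 difference -0.49 ± 0.07, limma adjusted p = 4.8e-05). In trunk it was at 7.09 ± 0.384 FPKM in Ednrb-/- against 8.16 ± 0.446 in WT libraries, a call at the threshold (limma adjusted p = 0.0485) that 11 of 16 libraries left out in turn ended, at adjusted p up to 0.126 without Ednrb-/- trunk replicate 4. Gatm was higher in trunk than caudal tissue in both genotypes, by 0.94 ± 0.07 in Ednrb-/- (limma adjusted p = 1.7e-07) and 0.64 ± 0.07 in WT libraries (adjusted p = 1.3e-05), the reverse of Arg1. Gamt, the next enzyme of creatine synthesis, was likewise higher in trunk, by 0.86 ± 0.11 in Ednrb-/- (limma adjusted p = 3.7e-05) and 0.55 ± 0.11 in WT libraries (adjusted p = 0.0029).

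Of 8 transport genes tested, 2 rose and 2 fell in each region in Ednrb-/- libraries. Over all genes tested, 12.2% rose and 13% fell in trunk, and 21.7% rose and 19.9% fell in caudal tissue. Nothing is read from the transport counts. Slc7a1, the main cationic amino acid carrier that brings arginine into cells, was at 4.49 ± 0.379 FPKM in Ednrb-/- trunk and 3.47 ± 0.106 in WT trunk, and at 5.25 ± 0.805 in Ednrb-/- caudal and 4.14 ± 0.270 in WT caudal libraries. It rose by 0.33 ± 0.08 in trunk (limma adjusted p = 0.0099) and 0.30 ± 0.08 in caudal tissue (adjusted p = 0.0091). Atp13a2, which moves polyamines out of lysosomes, fell by 0.22 ± 0.06 in trunk (limma adjusted p = 0.0128) and by 0.40 ± 0.06 in caudal tissue (adjusted p = 0.0001). Slc18b1, a vesicular polyamine transporter, fell by 0.38 ± 0.08 in trunk (limma adjusted p = 0.0045) and by 0.46 ± 0.08 in caudal tissue (adjusted p = 0.00047).

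Of 4 genes of polyamine breakdown, Paox rose (0.23 ± 0.06, limma adjusted p = 0.0158) and Smox fell by 0.29 ± 0.08 (adjusted p = 0.0169) in Ednrb-/- trunk, and 0 of 4 passed in caudal tissue, where Paox differed by 0.10 ± 0.06 and Smox by -0.14 ± 0.08. Under TPM scaling 2 of 4 fell in caudal tissue. With the deposited values, 25.1% of all genes tested passed in trunk and 41.6% in caudal tissue. The Paox call was lost without WT trunk replicate 4 (limma adjusted p = 0.0506), and the Smox call with either WT trunk replicate 2 (adjusted p = 0.0543) or Ednrb-/- trunk replicate 3 (adjusted p = 0.0555) dropped. Sat1, which acetylates polyamines for export and breakdown, was lower in trunk than caudal tissue in both Ednrb-/- (-0.31 ± 0.07, limma adjusted p = 0.0025) and WT libraries (-0.23 ± 0.07, adjusted p = 0.0246). The WT call for Sat1 was lost without WT trunk replicate 3 (limma adjusted p = 0.0758) or 4 (adjusted p = 0.0785), or WT caudal replicate 2 (adjusted p = 0.0676) or 4 (adjusted p = 0.0541). The genotype effects on Sat1 did not pass a test against each other (limma adjusted p = 0.701).

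Myc factors were listed because Odc1 is a long-known Myc target. Of 4 genes, Myc and Mycn rose in both regions, and Max rose in caudal tissue at the threshold (0.14 ± 0.06, limma adjusted p = 0.049), a call that 11 of 16 libraries left out in turn ended, up to an adjusted p of 0.162 without Ednrb-/- caudal replicate 2. Myc was at 8.88, 9.82, 12.0 and 10.3 FPKM in Ednrb-/- trunk, against 6.88, 7.02, 6.37 and 8.12 in WT trunk. It was at 13.6, 21.0, 14.0 and 15.9 FPKM in Ednrb-/- caudal, against 8.41, 10.5, 8.15 and 7.29 in WT caudal libraries. The genotypes were separate in both regions, with log2 differences of 0.50 ± 0.13 (limma adjusted p = 0.0127) and 0.86 ± 0.13 (adjusted p = 0.00013). Mycn was at 20.3 ± 1.32 FPKM in Ednrb-/- trunk and 14.6 ± 0.775 in WT trunk, and at 27.6 ± 2.37 in Ednrb-/- caudal and 18.8 ± 0.767 in WT caudal libraries. Its log2 differences were 0.46 ± 0.06 (limma adjusted p = 0.00011) and 0.54 ± 0.06 (adjusted p = 1.1e-05). Mycl differed by 0.04 ± 0.07 in trunk and 0.07 ± 0.07 in caudal tissue and did not pass. Over all genes tested, 12.2% rose in trunk and 21.7% in caudal tissue.

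**Figure D4:**
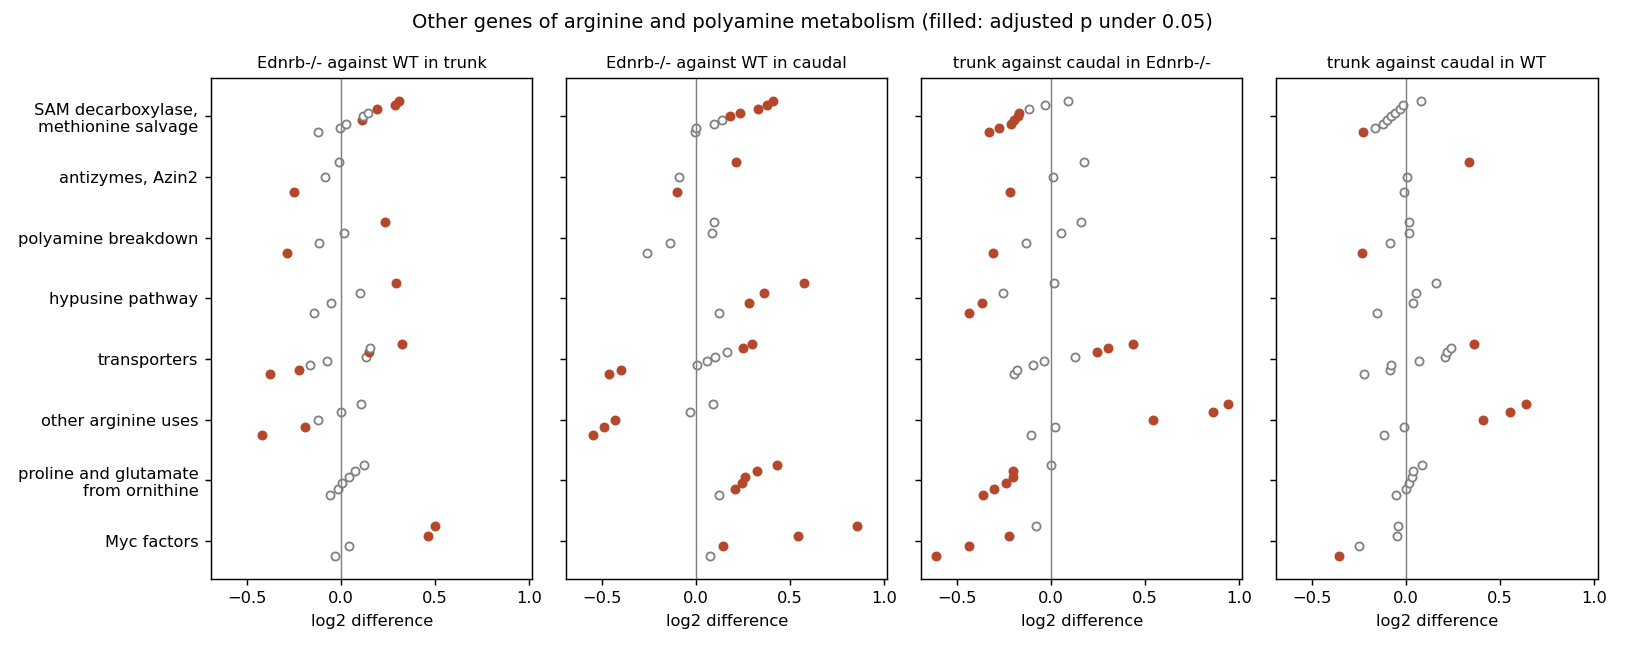
Log2 differences of the 43 other genes tested, 1 row of points per role and 1 panel per comparison. They belong to arginine and polyamine metabolism, apart from 4 Myc factors. Filled points have a limma adjusted p under 0.05. Genes of methionine salvage, the hypusine pathway, proline and the Myc factors lie mostly to the right between genotypes in caudal tissue, and the called genes of other arginine uses to the left.

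Profiles over the 16 libraries were compared by the root mean square difference of log2(FPKM + 0.5) after centring each gene, among genes with a mean of at least 1 FPKM. Of 13817 genes compared, the nearest to Arg1 were Lin28a (0.216), Igdcc3 (0.299), Prtg (0.405), Gm39529 (0.434) and Fignl2 (0.462), where the Arg1 profile's own root mean square was 1.17. Lin28a, an RNA-binding protein that blocks let-7 maturation, averaged 6.15 FPKM in Ednrb-/- trunk and 1.52 in WT trunk, and 20.2 in Ednrb-/- caudal and 3.60 in WT caudal libraries. Nearest to Odc1, whose own value was 0.323, were Hspd1 (0.0737), Dut (0.0773), Npm1 (0.0813), Hspe1 (0.0826) and Pkm (0.0845). Hspd1 and Hspe1 encode the mitochondrial chaperonin pair, Dut a dUTPase, Npm1 a nucleolar protein and Pkm pyruvate kinase. Npm1 averaged 635 FPKM in Ednrb-/- trunk and 486 in WT trunk, and 809 in Ednrb-/- caudal and 531 in WT caudal libraries. None of these 10 genes is on the list of 51, and the likeness is a description over libraries of 4 groups.

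**Figure D5:**
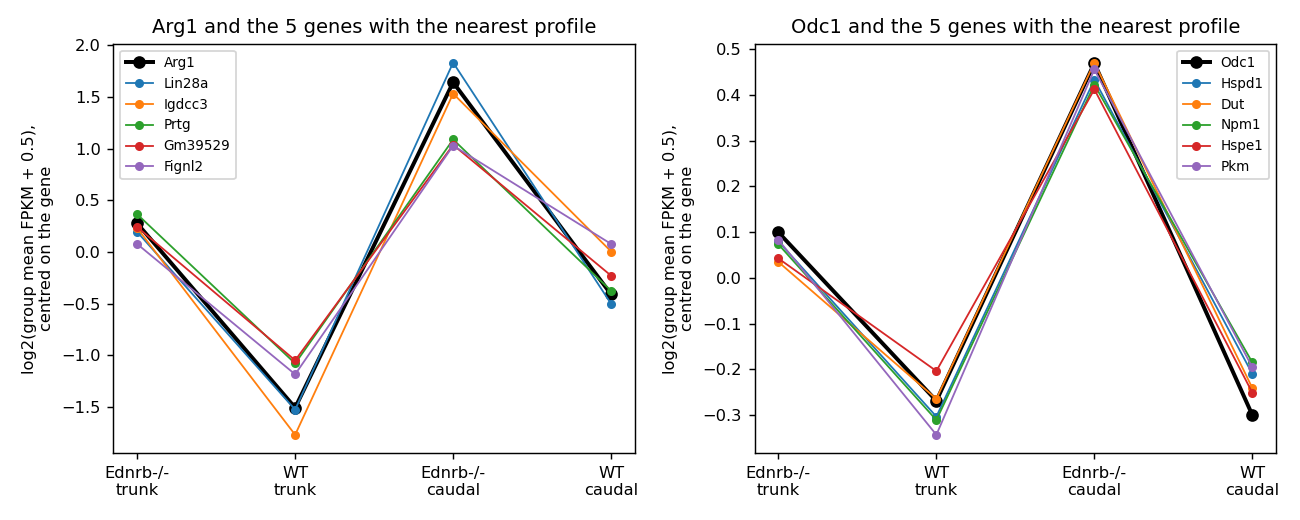
Log2 of group mean FPKM + 0.5, centred on each gene, for Arg1 (left, black) and Odc1 (right, black) and the 5 genes nearest to each in profile over 16 libraries. Both gene sets are highest in Ednrb-/- caudal libraries, and the axes differ in range between the panels.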

How the data were processed

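Total RNA was extracted with TRIzol and sequenced from 16 libraries, 4 in each of 4 groups by genotype and region, per the labels' protocols. The submitters' processing notes list fastp, HISAT2 2.0.5, featureCounts 1.5.0-p3 and mm39. No source used here names the annotation release, the strand setting or the treatment of multi-mapping reads. The deposited values were FPKM per gene, per the file headers. FPKM multiplied by gene length gave whole reads for 100% of values within 0.01, and these gave depth (34883821 to 43444905 reads). Arg2 rests on as few as 11 reads in a library. Within groups every pair of libraries exceeded sampling noise (chi-square per degree of freedom 5.461 to 16.07), so none was counted as a repeat.

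limma 3.58.1 in R 4.3.3 was fitted to log2(FPKM + 0.5) as 4 group means with an intensity trend in the prior. P-values were Benjamini-Hochberg adjusted over 17205 genes that reached 0.5 FPKM in 4 or more libraries, and the threshold was 0.05. Fold changes on this scale understate the change of low genes. All libraries shared 1 estimate of the spread. The procedure was tested on simulated data. The labels do not say that libraries came from separate embryos, so p-values measure the spread between these libraries.

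The 9 genes, the list of 51, the markers and the tests were chosen with earlier results of these data known. All 9 genes were named. Of the others, up to 3 called genes per role and comparison by adjusted p were eligible, and the text names a part of these. Mycl, Ddah2, S100a9, Mpo, Prtn3 and the Krt genes were named after their values were seen. Alternatives were other pseudocounts (0.1, 1), filters (none, 1 FPKM) and scalings (TPM, quantile, median-of-ratios), a fit to only the groups compared, a replicate block, voom on whole reads, a minimum change of 2-fold, and each library dropped in turn. Chosen after seeing the data were a sex term, dropping the 3 libraries that had Xist as well as Ddx3y above 5 FPKM, scaling to reads in listed genes, and adding the reads of the nearest copy (Gm7993, Sms-ps, Gm5424 and Amd2). Shared windows are 51-base stretches of GENCODE M21 transcripts (GRCm38) found in another gene's transcripts. Promoter windows and their build are RefSeq's (GRCm38.p6). The deposited coordinates are mm39, and no coordinate was converted. The symbol Pycr3 was matched to Pycrl in the table by its RefSeq synonym. Figures were drawn with matplotlib 3.10.9 in Python 3.11.15.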

Additional observations from a re-analysis of the deposited data

Results flagged for a closer look

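Among 36 checks of 9 genes in 4 groups, 5 libraries stood far from the other 3 of their group by Dixon's ratio, where chance flags about 1 group in 20. Odc1 was highest at 88.6 FPKM in WT trunk replicate 1, the others lying between 80.8 and 82.1. Srm was highest at 35.9 FPKM in Ednrb-/- trunk replicate 4, the others lying between 31.4 and 31.8. Sms was lowest at 16.0 FPKM in WT trunk replicate 2, the others lying between 17.7 and 17.8. Asl was highest at 3.29 FPKM in WT caudal replicate 4, the others lying between 2.84 and 2.89. Azin1 was lowest at 36.6 FPKM in Ednrb-/- trunk replicate 4, the others all being close to 37.4.

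The genotype effect differed between regions, trunk minus caudal on the log2 scale, for 4 of the genes described. It was -0.40 for Odc1 and 0.70 for Ass1 among the 9 genes, and -0.42 for Dhps and -0.44 for Prodh among the 43 others tested, each with a limma adjusted p under 0.05 for the difference itself. The Dhps value passed in each refit that left out 1 library, from -0.46 to -0.37.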

How the results depend on the processing

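Of 3332 refitted values of single genes, 3082 kept direction and side of the threshold or, without a test, moved by less than the spread between replicates. Part of these differences could not move. The 2-fold minimum reused the reported fit, and adding copy reads altered only the genes with a named copy. Dropping a library outside a comparison, changing the filter or fitting only the groups compared left the log2 difference as it was. The total therefore overstates how far the values were tried. Another 217 kept direction but no longer passed, 20 changed sign, and 13 without a test moved by more than that spread. Of 278 refitted counts 254 stayed within 1.5 times the reported count. The Arg1 differences between genotypes and regions, the Srm and Odc1 differences between regions in Ednrb-/- and the Ass1 difference between regions in WT kept their direction and any call under every alternative run, except that a 2-fold minimum left only Arg1.

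With that minimum 1 of the 9 genes passed in each genotype comparison and in each region comparison, 0 for the difference between effects, and 0 of the 43 other genes in each of 4 comparisons. Between regions in Ednrb-/-, 3 of the 9 genes passed in place of 5 under TPM scaling, only the groups compared, voom, the 3 libraries left out and the listed-read total, and 3 to 5 with 1 library left out. For the difference between genotype effects 0 passed with no filter and 0 to 2 with 1 library left out. The causes were not tested.

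These changes of sign were near 0. For the Sms difference between effects they were 0.0457 (TPM), 0.0195 (quantile), 0.000113 (voom) and 0.000291 (listed-read total), and values ran from -0.068 to 0.0183 with 1 library left out. For Azin1 they were 0.0127 and 0.0352 between regions in Ednrb-/- and 0.000601 and 0.0177 for the difference between effects, under TPM and quantile scaling. Its caudal genotype difference, counted among the 13, also changed sign, to -0.0234 (TPM) and -0.0539 (quantile). Azin1 values between regions in WT ran from -0.00619 to 0.0486 with 1 library left out. For Ass1 between regions in Ednrb-/- the value was -0.0274 (quantile), and values ran from -0.0515 to 0.141 with 1 library left out. The Arg2 difference between effects was 0.0561 without the 3 libraries with both Xist and Ddx3y. Oat between genotypes in caudal tissue was -0.00603 (TPM) and -0.0340 (quantile), and Oaz1 was -0.0294 (quantile). The Arg2 genotype difference in trunk was -0.72 with a pseudocount of 0.1 and -0.87 with voom.

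Libraries with the same replicate number did not deviate together (correlations -0.0836 to 0.1086 over 24 pairs). With the number as a replicate block the counts of the 9 genes were 5 in each genotype comparison, 5 and 3 (Arg2 included) between regions in Ednrb-/- and WT, and 2 for the difference between effects, as without it, and those of the 43 others were 15, 24, 23 and 7. The lowest depth behind a value of the 9 genes was 11 reads, for Arg2.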
